A study of Mus musculus with 18 samples.

Results

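The genotype-by-zymosan interaction in mature lung neutrophils is the zymosan response of CGD cells minus the zymosan response of WT cells. It was read gene by gene from the 12 CD101pos libraries among the 18 RNA sequencing libraries of the series, 3 for each combination of genotype and challenge. CGD mice carry a knockout of Cybb (labelled CGD/CYBB KO) and WT mice are wild type, all on the C57BL/6 strain. Zymosan groups received 20 µg of sterile zymosan intranasally and were collected 24 hours later, from females of 13 weeks, and naive groups were untreated males of 12 weeks. Both genotypes have the same sexes and ages at each challenge state, so a genotype difference in how sex or age acts cannot be told apart from one in how zymosan acts. Cells were sorted from digested lung as live CD45+ CD11b+ Ly6G+ CD101+ cells, which the labels call mature neutrophils.

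Cybb encodes the membrane-bound catalytic subunit of the phagocyte NADPH oxidase, the enzyme behind the respiratory burst, and people born without a working oxidase have chronic granulomatous disease (CGD), whose neutrophils engulf microbes but cannot form the burst. Zymosan is yeast cell wall rich in beta-glucan, sensed through the lectin receptor that Clec7a encodes and through Toll-like receptors, and it evokes inflammation without any live organism. CD101 is a surface glycoprotein that neutrophils acquire late in maturation. An interaction tells apart genes on which the oxidase knockout and the challenge act together from genes that merely differ by genotype or merely respond to zymosan.

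Reads in genes numbered 33.7 to 67.9 M per library over these 12, with the fewest in WT naive libraries, and replicates of a group correlated at 0.958 or more across genes. Cybb stood at 240.0, 249.6 and 283 CPM (reads per M reads) in WT naive, 187, 126 and 205 in WT zymosan, 54.0, 50.8 and 59.5 in CGD naive and 34.6, 29.6 and 33.8 in CGD zymosan libraries, low in each CGD library as labelled. Its own interaction was -0.17 ± 0.25 (SE; adjusted p = 0.858), which did not pass. Ly6g, the surface marker of the sort, was present in each group (10.6 to 214 CPM over the 12 libraries). CGD naive replicate 3 stood apart through late-granule genes, with the granule protein gene Camp at 134 CPM against 10.9 and 13.4 in the other CGD naive libraries and Ltf at 963 against 93.9 and 101 CPM. WT zymosan libraries also spread on such genes, with the granule gene Chil1 at 637, 2388 and 1222 CPM. The 27 secondary and tertiary granule genes summed to 12300 to 28300 CPM in CGD naive and 14100 to 33100 CPM in WT zymosan libraries. Their sum was 19200 to 31600 CPM in CGD zymosan and 13500 to 15100 CPM in WT naive libraries. Nothing in the sources used here says whether replicates came from different animals. The p-values therefore reflect only variation among the libraries at hand, which may be technical.

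A small set of genes separated the genotypes in their response to zymosan. Of 16575 genes tested, 53 were called at an adjusted p under 0.05 (0.320% of all genes), 27 with a higher response in CGD (0.163%) and 26 with a lower one (0.157%). By the lowest p, the 4 leading genes with a higher response were Ecm1, Rhoh, Mt2 and Cd38, and the leading gene with a lower response was Hnmt. Of the 53, 48 are protein-coding, and in 37 the highest group mean reached 10 CPM. Across all genes the median log2 interaction was 0.01, the quartiles were -0.41 and 0.49, and the median SE was 0.51. The called interaction nearest to 0 was that of Pqlc1, -1.05 ± 0.21. At an unadjusted p under 0.05 there were 1767 genes (10.7%). Scaling by library size only gave 13 calls, 9 higher and 4 lower, in place of the split of 27 and 26, and DESeq2 gave 261, 118 higher and 143 lower.

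**Figure D1:**
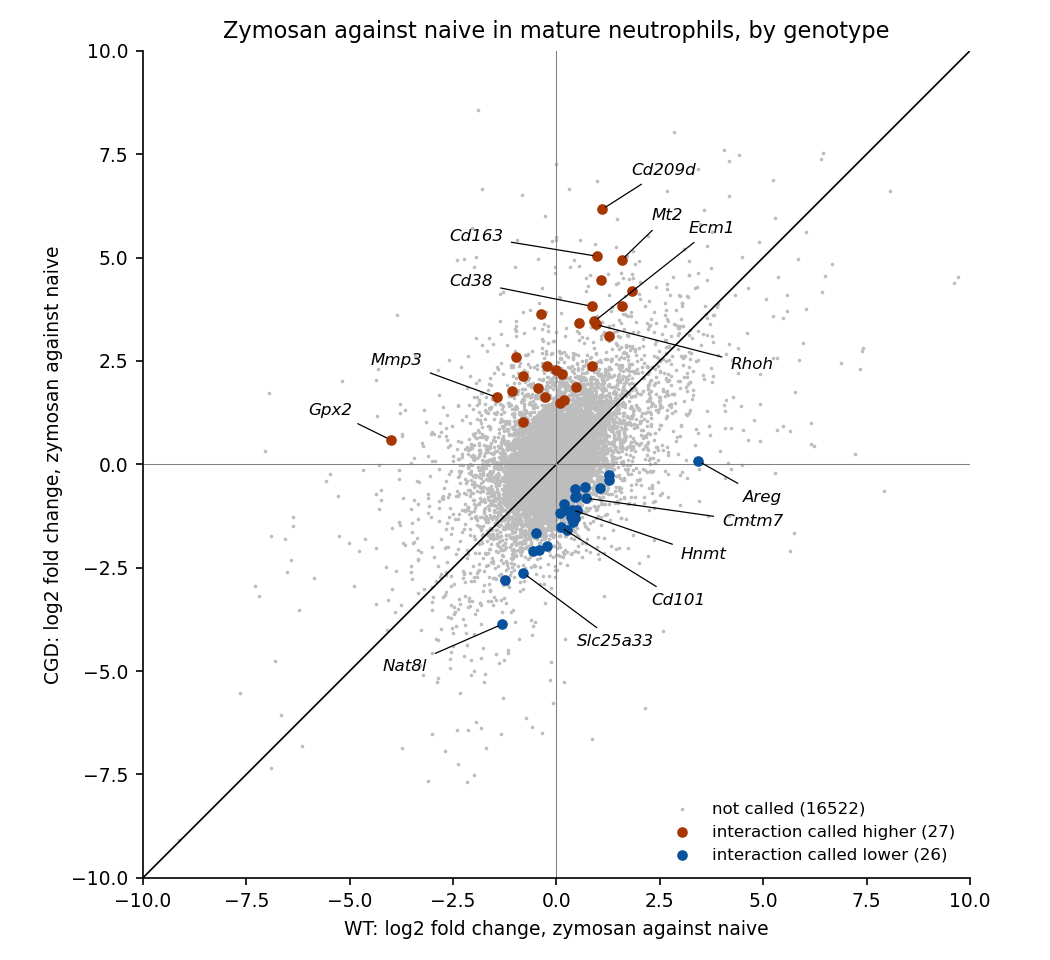
Log2 fold change of zymosan against naive in WT cells (x axis) and in CGD cells (y axis) for each tested gene, with the line of equal response in black; 3 genes lie outside the axes. Genes called higher (27, brown) sit above the line and genes called lower (26, blue) below it, many of them near the vertical axis, where the WT response is small.

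Most fits with 1 library left out gave fewer calls. Each such fit has fewer samples, and the cause of the lower counts was not tested. Leaving out CGD zymosan replicate 2 or WT naive replicate 2 left 5 calls each, WT zymosan replicate 3 left 8 and WT naive replicate 3 left 10. The count was 16 without CGD naive replicate 2, 17 without WT naive replicate 1, 22 without WT zymosan replicate 2, 23 without CGD zymosan replicate 1, 24 without replicate 3 of either CGD group, 34 without CGD naive replicate 1 and 54 without WT zymosan replicate 1. Ecm1, Rhoh, Mt2, Cd38 and Hnmt were the 5 genes called in all 12 of these fits and in all 6 of the other settings tried. Dus2, Adamtsl4 and Rassf3 were called in all 6 other settings but not in each fit with a library left out. The median over the 53 was 3 of the 12 such fits, 11 genes were called in 1 of them, and Pqlc1, Cyb5r1, Rassf2, Tppp3 and Gap43 were called in none. No called gene changed sign in any of the 18 settings, but these reuse the same libraries, so this adds little.

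**Figure D2:**
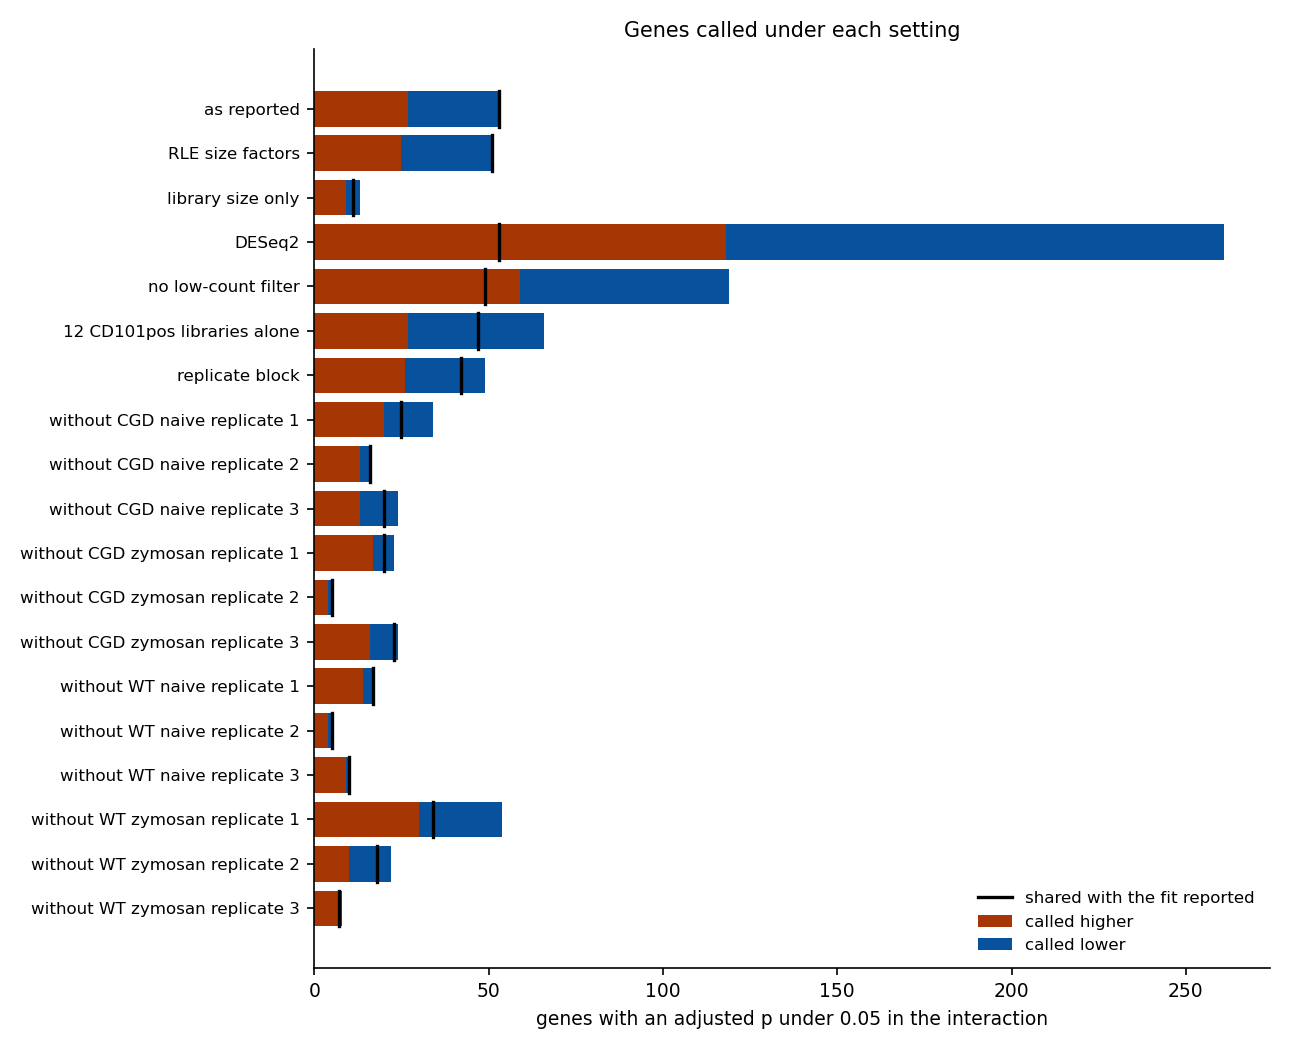
Number of genes with an adjusted p under 0.05 (x axis) under the fit as reported and each alternative (y axis), split into called higher and called lower, with a black bar at the number also called as reported. DESeq2 called 261 genes and fits without 1 library called between 5 and 54.

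Most called genes had a response in CGD cells and none that passed in WT cells. Among the 27 higher genes, 26 were called higher by zymosan in CGD (7.13% of all genes were), 7 of these also in WT (2.92% of all genes were called higher in WT), 18 had no passing WT response, and Mmp3 was called lower in WT (0.875% of all genes were). The last, Gpx2, was called lower in WT alone. Among the 26 lower genes, 21 were called lower by zymosan in CGD (5.71% of all genes), of which 18 had no passing WT response, Nat8l and Ighm were also called lower in WT, and Cmtm7 was called higher in WT. The other 5 lower genes, Areg, Pak1, Gap43, Rassf2 and Amer2, were called higher in WT without a passing CGD response. These challenge contrasts use the same libraries as the interaction, so they describe its shape and add no separate evidence.

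The CGD zymosan group stood apart at the level of single libraries. In 23 of the 27 higher genes each of its 3 libraries lay above the other 9, which held for 6.47% of all genes, and in 22 of the 26 lower genes each lay below, which held for 5.61% of all genes. The higher genes that overlapped were Gpx2, Map3k6, Kcnk5 and Gm8337, and the lower ones were Areg, Amer2, Gap43 and Pak1. In 9 of the 26 lower genes all 3 WT zymosan libraries lay above the other 9 (0.929% of all genes). The gap between genotypes was wider after zymosan than in naive cells in 49 of the 53, against 59.8% of all genes, the exceptions being Cd209d, Kcnk5, Gm8337 and Areg, where the naive gap was wider. The 53 genes were called from these same libraries, so a high share among them is built in. These counts describe the calls and add no separate evidence.

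**Figure D3:**
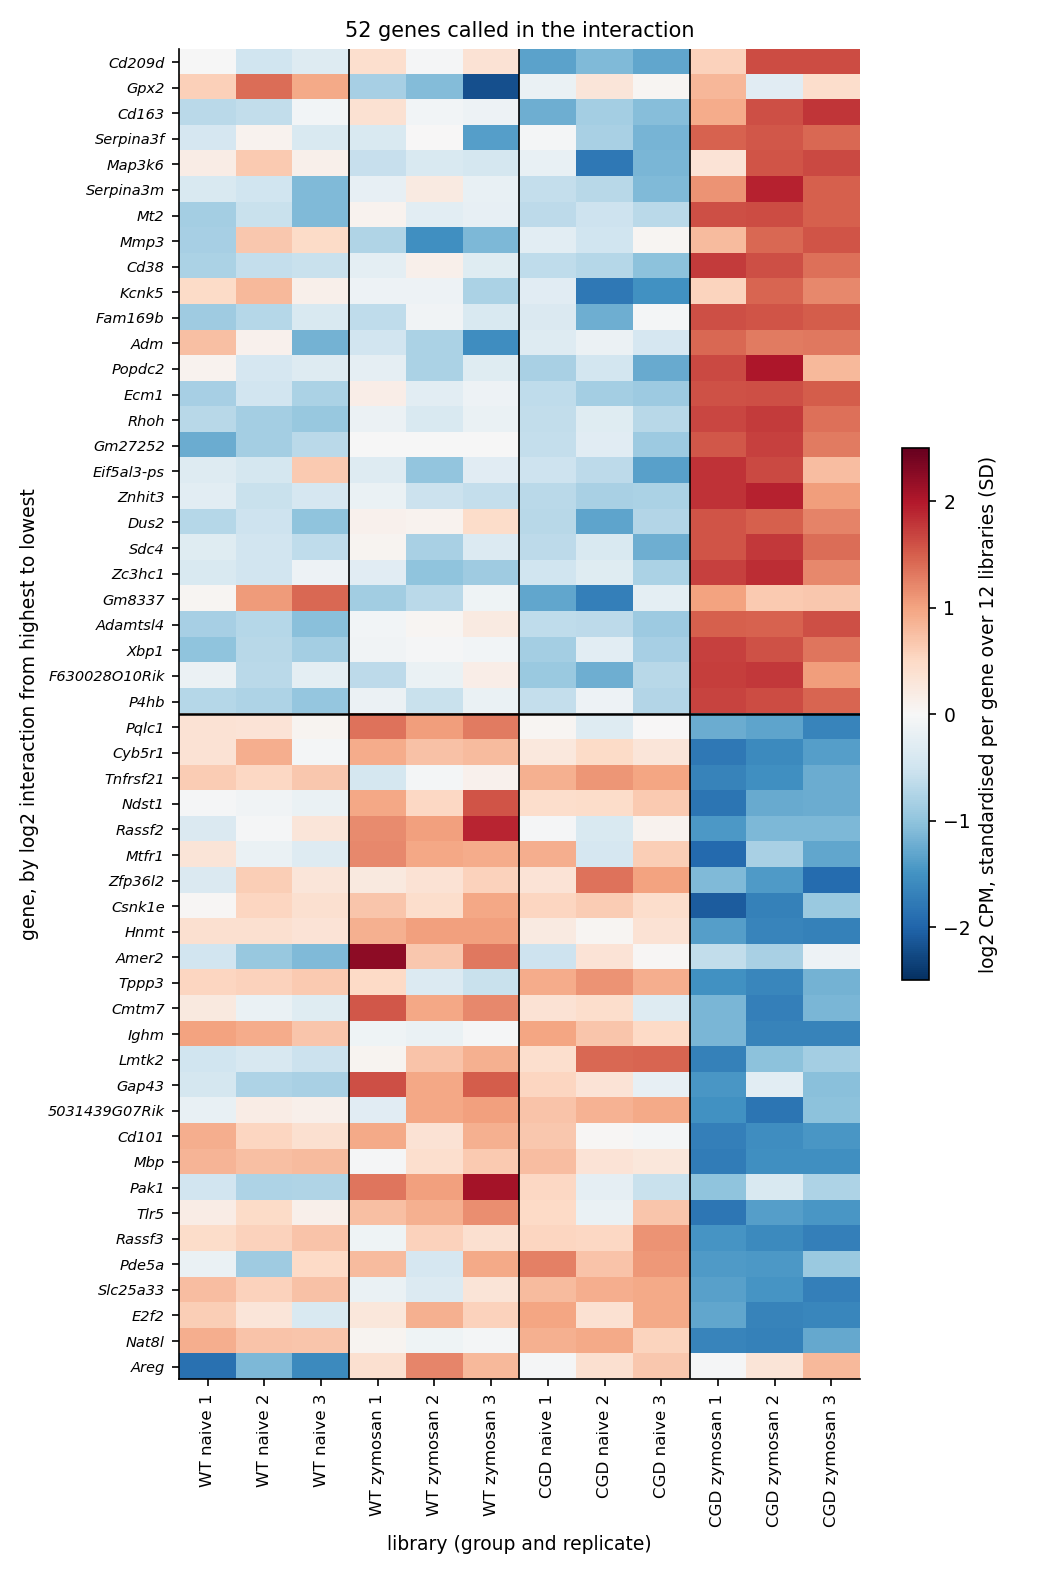
Log2 CPM of 52 of the 53 called genes, standardised per gene over the 12 CD101pos libraries (colour, in SD), with genes from the highest to the lowest log2 interaction and libraries by group. The CGD zymosan columns are the highest in 22 of the 26 genes above the line and the lowest in 22 of the 26 below it.

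Among genes with a higher response, the one with the lowest p was Ecm1, which encodes a secreted extracellular matrix glycoprotein. In CGD libraries it stood at 31.1, 25.4 and 23.9 CPM when naive and at 299, 309.8 and 277 CPM after zymosan. WT libraries held 25.9, 36.6 and 26.8 CPM when naive and 70.8, 45.9 and 52.1 CPM after zymosan. The naive groups overlapped, WT rose modestly, and the lowest CGD zymosan library was far above the highest WT one. Zymosan raised Ecm1 by a log2 of 3.46 ± 0.23 in CGD and 0.92 ± 0.21 in WT, which left an interaction of 2.54 ± 0.30 (SE; adjusted p = 9.20e-04). Adamtsl4, a secreted protein that binds microfibrils, had a like course. It went from 6.41, 6.34 and 4.97 to 49.6, 48.5 and 54.7 CPM in CGD and from 5.38, 6.01 and 4.33 to 11.03, 12.5 and 14.6 CPM in WT. Both genotypes rose and the CGD zymosan libraries stood clear of the rest, with an interaction of 1.83 ± 0.30 (adjusted p = 0.0197), called in 10 of 12 fits with a library left out. Sdc4, the cell-surface heparan sulfate proteoglycan syndecan-4, moved from 35.1, 42.0 and 24.1 to 153, 174 and 136 CPM in CGD. In WT it was at 44.3, 39.5 and 35.6 CPM when naive and 56.6, 31.8 and 43.3 CPM after zymosan, groups that overlapped. Its interaction was 2.06 ± 0.35 (adjusted p = 0.0228; called in 8 of 12).

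A signalling gene, Rhoh, and an ectoenzyme gene, Cd38, were also called in every setting. Rhoh encodes a small protein of blood cells that binds but does not hydrolyse GTP. CGD libraries rose from 29.9, 41.7 and 27.4 to 369.8, 395 and 267 CPM, and WT libraries from 27.3, 23.0 and 20.7 to 50.2, 38.2 and 48.5 CPM. All 3 CGD zymosan libraries lay well above the other 9, and the interaction was 2.43 ± 0.29 (adjusted p = 9.20e-04). Cd38 encodes the surface enzyme that breaks down NAD. It rose in CGD from 11.2, 10.3 and 7.25 to 159.9, 139.7 and 108 CPM, while WT libraries held 9.45, 11.7 and 12.3 CPM when naive and 17.2, 26.7 and 16.3 CPM after zymosan. The WT groups did not overlap but their difference (0.85 ± 0.29) did not pass, and the interaction was 2.97 ± 0.41 (adjusted p = 0.00350). Of the other 11 tested genes of adenosine and NAD metabolism none was called. Among them Nampt, which salvages nicotinamide into NAD, had an interaction of 1.47 ± 0.39 (adjusted p = 0.139), with 199 to 238 CPM in CGD zymosan against 48.6 to 69.6 CPM in WT zymosan libraries. Nampt was picked out after its values were seen.

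Mt2 had the largest interaction among the 5 genes called in every setting. It encodes a metallothionein, a small cysteine-rich protein that binds zinc and copper, and its transcription is known to depend on the zinc-sensing factor that Mtf1 encodes, acting at metal response elements. CGD libraries went from 1.07, 1.34 and 1.04 to 37.4, 38.4 and 30.7 CPM and WT libraries from 0.764, 1.22 and 0.502 to 3.39, 1.99 and 2.17 CPM. Both genotypes rose, but each CGD zymosan library lay far above each WT zymosan library, and the interaction was 3.36 ± 0.44 (adjusted p = 0.00205). Its neighbour and paralog Mt1, named after its values were seen, showed 24.2, 32.1 and 25.8 CPM in CGD naive and 493, 309 and 191 CPM in CGD zymosan libraries. WT libraries of Mt1 held 27.6, 20.8 and 19.9 CPM when naive and 75.01, 102 and 62.7 CPM after zymosan, below each CGD zymosan library, and the interaction of 1.78 ± 0.47 did not pass (adjusted p = 0.131). Reads that fit both paralogs may have been dropped or split, which the sources used here do not state. In the list of metallothioneins and zinc transporters, 1 of 10 tested genes was called higher and none lower, with a median of 0.81. Of the zinc importers, Slc39a8 had 1.76 ± 0.57 and Slc39a14 0.94 ± 0.51, neither called, and Mtf1 itself -0.22 ± 0.26.

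The promoters of both metallothionein genes are shown because the called and the uncalled paralog can be set side by side at their metal response matches. They come from RefSeq (GRCm38.p6), run from 250 bases before to 50 bases after the annotated start, and are written 5′ to 3′ on the plus strand, on which both genes lie. Only the first window listed for each gene was used, and matches outside it were not counted. The match counts thus depend on the start used, and their part in the calls was not tested. Capitals mark each match to TGCNCNC on either strand, where N is any base, so the pattern is a loose one. No 2 matches in these windows share a base. Mt2 lies at chr8:94172368-94172667 and Mt1 at chr8:94178839-94179138.
Mt2: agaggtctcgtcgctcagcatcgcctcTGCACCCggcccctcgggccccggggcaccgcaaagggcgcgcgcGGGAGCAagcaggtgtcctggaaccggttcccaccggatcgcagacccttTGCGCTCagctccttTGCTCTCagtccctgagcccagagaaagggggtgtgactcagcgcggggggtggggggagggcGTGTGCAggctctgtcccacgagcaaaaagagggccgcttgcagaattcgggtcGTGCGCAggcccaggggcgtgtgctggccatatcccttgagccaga
Mt1: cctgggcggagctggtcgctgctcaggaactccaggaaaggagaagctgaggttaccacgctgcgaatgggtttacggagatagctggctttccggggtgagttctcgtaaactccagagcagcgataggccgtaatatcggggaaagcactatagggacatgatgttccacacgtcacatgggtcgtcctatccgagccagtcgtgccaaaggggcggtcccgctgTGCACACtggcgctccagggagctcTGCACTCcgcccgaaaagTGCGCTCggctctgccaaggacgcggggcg
Mt2 held 6 matches, as many as or more than which were found in 37 of the 11399 promoters matched by symbol (0.325%), and Mt1 held 3 (9.7% held as many). At least 1 match was present in 16 of the 22 promoters found for higher genes (72.7%), in 6 of the 16 found for lower genes (37.5%) and in 59.0% of all promoters. Matches to the NF-kB motif were in 59.1% of higher, 75.0% of lower and 66.2% of all promoters, and antioxidant response matches (TGACNNNGC) in 13.6%, 31.2% and 14.7%. Interferon-gamma activated matches (TTCNNNGAA) were in 9.1% of higher, 0.0% of lower and 6.9% of all promoters, and interferon-stimulated response matches in 4.5%, 0.0% and 3.2%. Both strands were searched and motifs may overlap each other. A match is a run of letters, not a shown binding site.

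Xbp1 and P4hb, whose products act in or on the endoplasmic reticulum, were called higher. Xbp1 encodes a transcription factor of the unfolded protein response. It rose from 148, 229.8 and 150.5 to 1027, 938 and 773 CPM in CGD and from 130.4, 167 and 148 to 262, 276 and 267 CPM in WT. Groups did not overlap between genotypes after zymosan, with an interaction of 1.52 ± 0.28 (adjusted p = 0.0246). P4hb encodes a protein disulfide isomerase, and it moved from 186, 247 and 169 to 782, 751 and 675 CPM in CGD. In WT it was at 173, 164 and 147 CPM when naive and 244, 188 and 241.9 CPM after zymosan, a difference that did not pass, and the interaction was 1.397 ± 0.262 (adjusted p = 0.0280). Xbp1 was called in 4 and P4hb in 3 of 12 fits with a library left out. Of 29 tested unfolded protein and integrated stress genes, only Xbp1 was called, 15 had a positive interaction, and the median was 0.06. Manf, a secreted folding factor, had 1.04 ± 0.32 (adjusted p = 0.211) and Hspa5, the chaperone BiP, 0.73 ± 0.26 (0.318). Eif2ak3, the sensor kinase PERK, had -1.42 ± 0.33 (0.0762). These 3 were named after their values were seen.

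Cd163, the scavenger receptor for haemoglobin bound to haptoglobin, is known from tissue macrophages. It stood at 0.438, 0.732 and 0.545 CPM in CGD naive and 8.44, 20.8 and 26.9 CPM in CGD zymosan libraries. WT libraries held 0.947, 1.02 and 2.201 CPM when naive and 3.98, 2.15 and 2.01 CPM after zymosan. Each CGD zymosan library was above the rest, with replicate 1 well under the other two, and the interaction was 4.05 ± 0.71 (adjusted p = 0.0228; called in 4 of 12). Other macrophage transcripts did not pass the test, and their levels are given beside it. The complement gene C1qa was at 23.4 to 40.6 CPM in CGD zymosan, 5.55 to 13.2 in WT zymosan and 2.193 to 3.602 CPM in naive libraries of both genotypes, and C1qb at 81.6 to 130.2, 16.4 to 48.9 and 8.498 to 15.26 CPM. The mannose receptor gene Mrc1 was at 17.5 to 49.0 CPM in CGD zymosan and 7.03 to 13.9 CPM in WT zymosan, and Car4, a carbonic anhydrase of alveolar macrophages, at 162 to 300.5 and 52.9 to 133 CPM. Levels after zymosan alone, as given for Mrc1, are a genotype difference and not an interaction. Car4 was at 27.2 to 36.5 CPM in CGD naive and 20.6 to 34.6 CPM in WT naive libraries. It thus rose in both genotypes, with an interaction of 1.41 ± 0.52 (adjusted p = 0.32). C1qa, C1qb, Mrc1 and Car4 were picked after their values were seen. Of 18 monocyte and interstitial macrophage markers, Cd163 alone was called, 8 had an unadjusted p under 0.05, 7 of them higher, and the median was 0.48. The 1 lower was the abundant Csf1r, with -0.96 ± 0.28 (adjusted p = 0.177). Its mean went from 485 to 314 CPM in CGD and from 461 to 582 CPM in WT. The summed level of the 18 markers was 1330 to 1610 CPM in CGD zymosan, 1170 to 1400 in WT zymosan, 1340 to 1480 in CGD naive and 1150 to 1260 CPM in WT naive libraries. Of 19 alveolar macrophage markers none was called, 6 had an unadjusted p under 0.05 (4 higher and 2 lower), and the median was 0.37. Their sum was 4590 to 5020 CPM in CGD zymosan, 1400 to 2130 in WT zymosan, 961 to 2170 in CGD naive and 898 to 956 CPM in WT naive libraries. The part of such cells in the higher genes was not tested, and in sorted bulk samples more cells of a type and more RNA per cell cannot be told apart.

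Zc3hc1 and Dus2 were also called higher. Zc3hc1 encodes NIPA, a protein of the nuclear pore basket. It moved from 8.73, 9.68 and 7.46 to 28.3, 30.7 and 21.6 CPM in CGD and was at 9.34, 8.81 and 10.7 CPM in WT naive and 9.83, 6.64 and 7.10 CPM in WT zymosan libraries. All 9 libraries outside CGD zymosan fell within 6.64 to 10.7 CPM, and the interaction was 1.93 ± 0.33 (adjusted p = 0.0228; called in 7 of 12). Dus2, which makes dihydrouridine in transfer RNA, rose from 1.06 ± 0.378 to 15.1 ± 2.74 CPM in CGD and from 1.26 ± 0.336 to 3.81 ± 0.974 CPM in WT (mean ± SD), with an interaction of 2.24 ± 0.40 (adjusted p = 0.0228). Fam169b was at 11.3 ± 0.669 CPM in CGD zymosan and at 1.17 CPM or less on average elsewhere, with 2.88 ± 0.54 (0.0290).

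Most of the other higher genes stayed under a group mean of 10 CPM. The inflammation-induced protease inhibitor genes Serpina3f and Serpina3m reached 8.38 ± 0.607 and 5.35 ± 2.65 CPM in CGD zymosan and at most 1.02 CPM on average in the other groups, with interactions of 4.004 ± 0.736 and 3.38 ± 0.64. They belong to a cluster of near copies, so the gene that gave the reads is uncertain. Adm, which encodes the peptide hormone adrenomedullin, was at 4.45, 4.01 and 4.11 CPM in CGD zymosan and 1.06, 0.840 and 0.470 CPM in WT zymosan libraries, with 2.84 ± 0.59. It was the only 1 of 20 hypoxia-induced genes called, and the list's median was -0.31, the reverse sign. Mmp3, the matrix protease stromelysin, rose from 2.35 ± 0.473 to 7.21 ± 2.02 CPM in CGD and fell from 3.32 ± 1.61 to 1.22 ± 0.350 CPM in WT, with 3.06 ± 0.55. Gpx2, a glutathione peroxidase, was called for its fall in WT, from 0.698, 1.70 and 1.03 to 0.122, 0.0819 and 0 CPM, a range of few reads, with 4.60 ± 0.94 (adjusted p = 0.0447; called in 1 of 12). Cd209d, a lectin gene with close paralogs, had the largest interaction, 5.06 ± 0.97, on 0.538, 2.14 and 2.15 CPM in CGD zymosan libraries and at most 0.425 CPM in any other. Part of that value came from naive cells, at 0.0204 CPM on average in CGD and 0.162 CPM in WT, again few reads. Cd209d was called in 2 of 12 fits with a library left out. Map3k6, a stress kinase gene, Kcnk5, a potassium channel gene, and Popdc2, a membrane protein gene, had 3.58 ± 0.67, 2.94 ± 0.62 and 2.60 ± 0.46. Znhit3, a zinc finger protein gene, had 2.28 ± 0.40. Of the 12 fits with a library left out, Popdc2 was called in 5, and Serpina3f, Serpina3m and Mmp3 in 4. Map3k6 and Znhit3 were called in 3 of them, Adm in 2 and Kcnk5 in 1. The remaining 4 are not protein-coding. The pseudogenes Eif5al3-ps and Gm8337 had 2.29 and 1.84, and the processed transcript Gm27252 had 2.38. F630028O10Rik, an antisense gene with 1.400, stood at 227, 231 and 170.3 CPM in CGD zymosan and 84.0, 103 and 118 CPM in WT zymosan libraries, and its reads cannot be told apart from those of a gene on the other strand. It was called in 1 of 12 fits with a library left out.

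**Figure D4:**
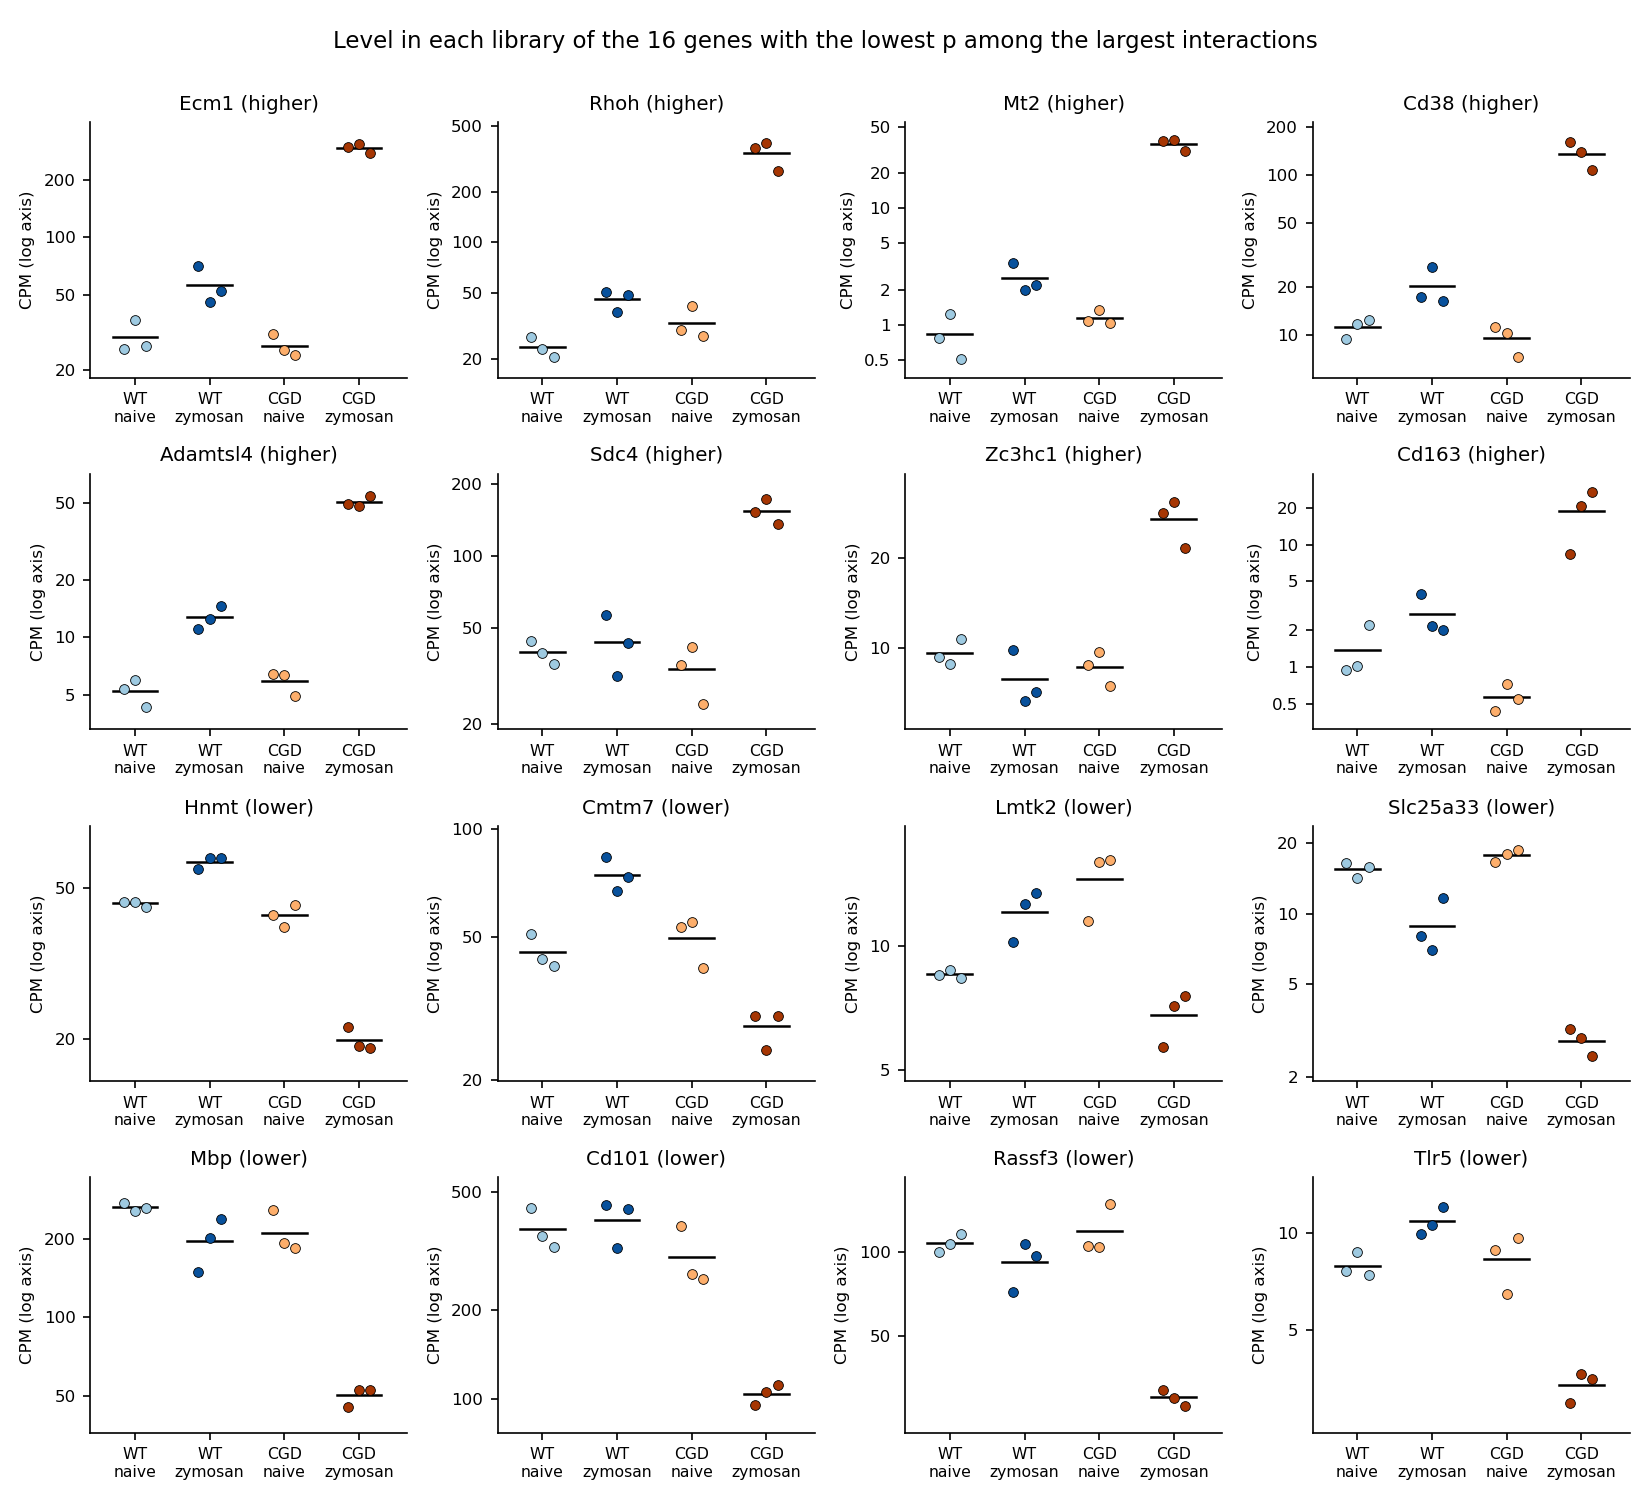
CPM (log axis) in each of the 12 CD101pos libraries of the 8 genes with a higher and the 8 with a lower response that had the lowest p among the largest interactions; points are libraries and bars are means of 3. In all 8 higher genes the CGD zymosan points are above the other 9, and in all 8 lower genes they are below them.

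Hnmt had the lowest p among the genes with a lower response. It encodes histamine N-methyltransferase, which inactivates histamine inside cells. CGD libraries went from 42.5, 39.5 and 45.1 CPM when naive to 21.5, 19.2 and 18.9 CPM after zymosan. WT libraries were at 46.0, 46.1 and 44.6 CPM when naive and 56.3, 59.9 and 60.0 CPM after zymosan. CGD libraries fell (-1.09 ± 0.15), and the WT zymosan libraries, though all above the naive ones, did not pass (0.37 ± 0.15). The interaction was -1.46 ± 0.21 (adjusted p = 0.00383). Cmtm7, a membrane protein of the chemokine-like factor family, was the only gene of the lower set called in opposite directions, lower in CGD and higher in WT. It fell from 53.2, 55.0 and 41.1 to 30.2, 24.3 and 30.1 CPM in CGD and rose from 51.1, 43.6 and 41.5 to 83.7, 67.2 and 73.3 CPM in WT. Neither pair of groups overlapped, and the interaction was -1.54 ± 0.26 (adjusted p = 0.0228; called in 7 of 12).

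Cd101, the gene of the maturation marker used in the sort, also had a lower response in CGD. It stood at 384, 265 and 254 CPM in CGD naive and 95.9, 106 and 112 CPM in CGD zymosan libraries, all of them sorted as CD101 positive. WT libraries held 442, 355 and 327 CPM when naive and 451, 322 and 436 CPM after zymosan, which overlapped. Only CGD fell (-1.52 ± 0.23; WT 0.11 ± 0.22), with an interaction of -1.63 ± 0.32 (adjusted p = 0.0349), called in 2 of 12 fits with a library left out. Of 16 tested maturation-linked surface genes, Cd101 was the only call, 5 had a positive interaction and the median was -0.20. The chemokine receptor genes Cxcr2 and Cxcr4 had -0.19 ± 0.45 and -0.81 ± 0.44, and the adhesion gene Ceacam1 -0.82 ± 0.28, none of them called. Tlr5 and Tnfrsf21 were 2 other receptor genes called lower. Tlr5, the flagellin receptor, moved from 8.81, 6.46 and 9.62 to 2.98, 3.66 and 3.53 CPM in CGD and was at 7.61, 8.75 and 7.39 and 9.91, 10.6 and 12.0 CPM in WT naive and zymosan libraries. CGD zymosan libraries were the lowest and WT zymosan libraries the highest of the 12, with -1.74 ± 0.34 (adjusted p = 0.0363; called in 2 of 12). Tnfrsf21, death receptor 6, fell from 34.9 ± 1.77 to 10.9 ± 1.11 CPM in CGD against 29.1 ± 1.17 and 20.7 ± 2.67 CPM in WT, with -1.18 ± 0.22 (0.0252).

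Slc25a33, a mitochondrial carrier of pyrimidine nucleotides, fell from 16.6, 18.03 and 18.7 to 3.21, 2.94 and 2.46 CPM in CGD. WT libraries were at 16.4, 14.2 and 15.8 CPM when naive and 8.05, 7.01 and 11.6 CPM after zymosan, a smaller difference that did not pass. Each CGD zymosan library lay under the lowest WT zymosan one, and the interaction was -1.84 ± 0.32 (adjusted p = 0.0228; called in 5 of 12). Nat8l, which makes N-acetylaspartate, fell in both genotypes, from 8.16, 8.75 and 5.55 to 0.434, 0.415 and 0.670 CPM in CGD and from 8.24, 6.67 and 6.53 to 3.18, 2.64 and 2.78 CPM in WT, with -2.55 ± 0.45 (0.0228). Mtfr1, a regulator of mitochondrial fission, had -1.25 ± 0.26, called in 1 of 12 fits with a library left out, and the reductase gene Cyb5r1 -1.16 ± 0.24, called in none of them. Pde5a, which breaks down cyclic GMP, was at 3.67 ± 0.473 CPM in CGD zymosan against 7.77 ± 2.23 CPM in WT zymosan, with -1.79 ± 0.38 (called in 1 of 12). Ndst1, an enzyme of heparan sulfate sulfation, was at 20.9 ± 1.86 against 41.5 ± 6.21 CPM, with -1.24 ± 0.22.

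Rassf3, a Ras-association domain gene, went from 105, 104 and 148 to 32.2, 30.2 and 28.2 CPM in CGD, while WT libraries held 99.5, 107 and 115 CPM when naive and 71.8, 107 and 96.3 CPM after zymosan. CGD zymosan libraries were far under the lowest of the rest, with -1.75 ± 0.34 (adjusted p = 0.0361; called in 2 of 12). Lmtk2, a membrane-anchored kinase, was at 11.5, 16.0 and 16.1 CPM in CGD naive, 5.69, 7.12 and 7.54 in CGD zymosan, 8.47, 8.75 and 8.33 in WT naive and 10.2, 12.6 and 13.4 CPM in WT zymosan libraries. Its naive libraries did not overlap and were higher in CGD, but that difference (0.77 ± 0.19) did not pass (adjusted p = 0.208). The interaction of Lmtk2 was -1.60 ± 0.27 (adjusted p = 0.0228, called in 6 of 12). Pak1, a kinase activated by Rac and Cdc42, was called through WT, where it rose from 15.8 ± 1.06 to 38.1 ± 8.65 CPM, against 20.3 ± 4.65 and 15.5 ± 1.99 CPM in CGD, with -1.65 ± 0.33. Rassf2 rose in WT from 132 ± 14.8 to 214 ± 35.1 CPM, against 129 ± 10.3 and 88.0 ± 5.44 CPM in CGD, with -1.24 ± 0.26. Csnk1e, casein kinase 1 epsilon, had -1.30 ± 0.27.

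Mbp, E2f2 and Zfp36l2 were called lower as well. Mbp is named for myelin basic protein, and its locus also makes longer forms in immune cells. It was at 259, 192 and 184 CPM in CGD naive, 45.3, 52.6 and 52.6 in CGD zymosan, 275, 256 and 264 in WT naive and 149.5, 203 and 239 CPM in WT zymosan libraries. CGD zymosan libraries were far under the other 9, of which WT zymosan replicate 1 was the lowest, and the interaction was -1.65 ± 0.32 (adjusted p = 0.0315; called in 2 of 12). E2f2, a cell cycle transcription factor gene, fell from 44.1 ± 6.75 to 14.7 ± 1.48 CPM in CGD, with -1.85 ± 0.39, while none of 30 tested cell cycle and replication genes was called. Zfp36l2, which promotes decay of AU-rich messages, fell from 83.8 ± 14.2 to 37.3 ± 5.17 CPM in CGD, with -1.26 ± 0.27. Tppp3, a tubulin-binding protein gene, had -1.54 ± 0.33, Gap43, a membrane growth protein gene, -1.62 ± 0.34, Amer2, of the APC-binding family, -1.52 ± 0.32, Pqlc1 -1.05 ± 0.21 and 5031439G07Rik -1.62 ± 0.33. Areg, the epidermal growth factor receptor ligand amphiregulin, was scarce: it rose in WT from 0.0831, 0.201 and 0.120 to 0.957, 2.11 and 1.43 CPM, while CGD libraries held 0.622, 0.950 and 1.24 CPM when naive and 0.621, 0.892 and 1.43 CPM after zymosan, with -3.36 ± 0.65 (adjusted p = 0.0321).

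Ighm, the immunoglobulin heavy chain of IgM, fell in both genotypes and further in CGD, from 358, 275 and 232 to 55.2, 34.4 and 34.5 CPM against 366, 337 and 279 to 136, 130.0 and 148 CPM in WT, with -1.55 ± 0.32 (adjusted p = 0.0447). Of 10 tested B cell markers Ighm was the only 1 called. The other 9 summed to 16.5 to 18.1 CPM in CGD zymosan, 24.0 to 34.8 in WT zymosan, 80.6 to 105 in CGD naive and 104 to 178 CPM in WT naive libraries. Among these 9 none passed, 3 had an unadjusted p under 0.05, all lower, and the median log2 interaction was -0.64. The part of B cells in the Ighm result was not tested.

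CD101neg neutrophils of the zymosan mice, the immature cells of the labels, gave a readout in libraries that the contrast did not use. Their titles share numbers with the CD101pos zymosan libraries, so the same mice may have given both sorts. Deviations of same-numbered libraries of the 2 sorts from their group means correlated above 0.1 in 5 of 6 cases and matched best at their own number in all 6, so the CD101neg readout is not separate from the CD101pos one. Of the 27 higher genes, 17 were called higher in CGD than WT CD101neg cells (6.67% of all genes were), 2 were called lower and 8 did not pass. Cd38 had 3.32 ± 0.31 (adjusted p = 3.46e-06), Rhoh 2.71 ± 0.22 (1.32e-06) and Ecm1 2.60 ± 0.22 (1.64e-06). Mt2 had 2.28 ± 0.30 (1.04e-04) and P4hb 2.196 ± 0.192 (1.65e-06). Cd163 and Cd209d went the other way, with -2.16 ± 0.52 (0.0101) and -3.69 ± 0.81 (0.00571). Of the 26 lower genes, 23 were called lower in CGD than WT CD101neg cells (6.24% of all genes were), none was called higher, and Lmtk2, E2f2 and Areg did not pass. Cd101 had -1.45 ± 0.23 (4.84e-04) there, Tppp3 -2.28 ± 0.24 (1.26e-05) and Hnmt -0.90 ± 0.15 (6.76e-04). No naive CD101neg group was among these samples, so this is a genotype difference after zymosan and not an interaction.

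CXC chemokine and interferon-gamma-induced GTPase genes had the highest list medians, with no gene called. Among 13 tested CXC chemokine genes, none was called by edgeR, 6 had an unadjusted p under 0.05, all higher, 11 were positive and the median was 1.17, against 0.01 for all genes. DESeq2 called 1 of them, Cxcl3. Cxcl3, a neutrophil attractant, was at 118, 179.8 and 224 CPM in CGD naive and 3795, 3849 and 3020 CPM in CGD zymosan libraries, and at 83.8, 80.9 and 54.5 and 542, 351 and 504 CPM in WT. In neither genotype did naive and zymosan libraries overlap, and the interaction of 1.68 ± 0.39 did not pass (adjusted p = 0.0824). Cxcl2, its close relative, had -0.10 ± 0.32. Cxcl10, induced by interferons, was at 224, 372 and 779 CPM in CGD zymosan and 68.7, 29.6 and 49.8 CPM in WT zymosan libraries, with 2.38 ± 0.76 (0.252). Among 13 interferon-gamma-induced GTPase genes none was called by edgeR and 3 by DESeq2, 6 had an unadjusted p under 0.05, all higher, and the median was 1.57. Irgm1, which acts against vacuolar pathogens, was at 159, 189 and 392 CPM in CGD zymosan and 48.9, 58.5 and 46.4 CPM in WT zymosan libraries, with 2.09 ± 0.60 (0.177). Without CGD zymosan replicate 3 that list's median was 0.52. Type I interferon-stimulated genes had a median of -0.18, with none of 34 called and 2 at an unadjusted p under 0.05, both lower.

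**Figure D5:**
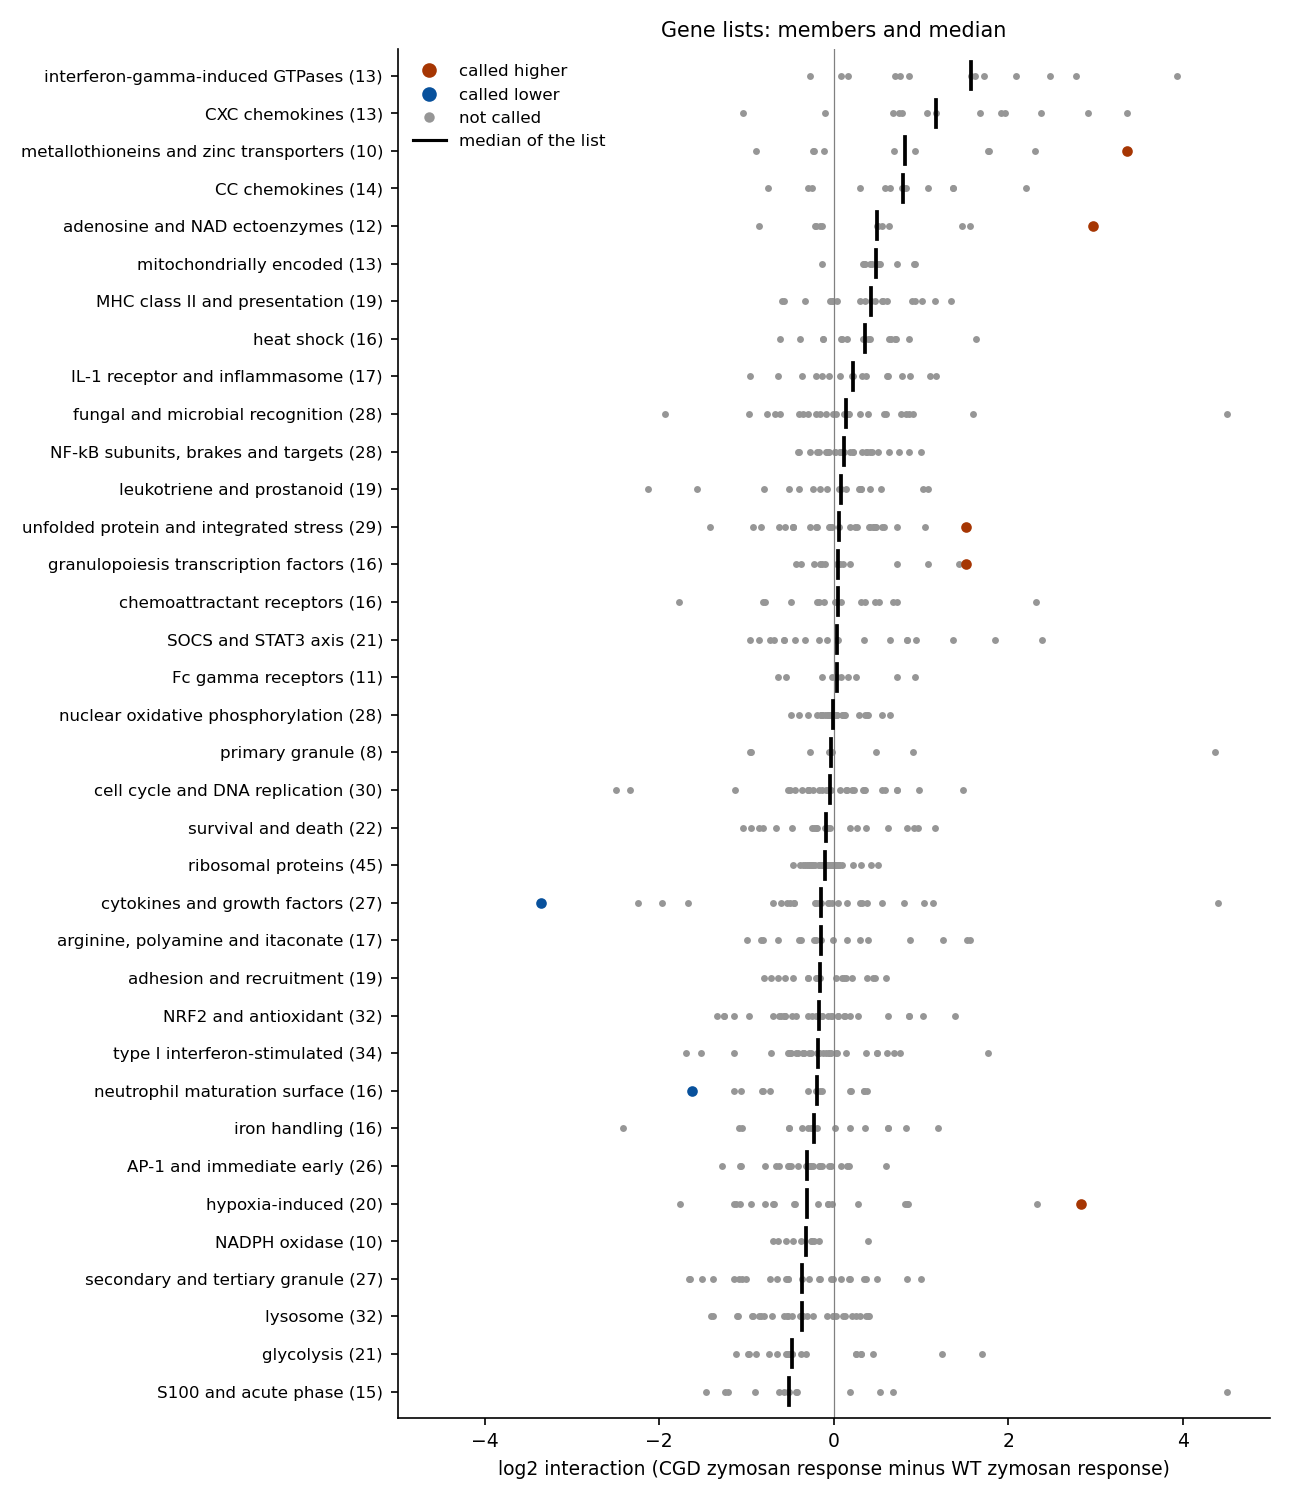
Log2 interaction (x axis) of each tested member of the 36 process lists (y axis, number tested in parentheses), with called genes in colour and the list median as a black bar; Ccl20 (7.27) and Saa1 (5.91) lie outside the axis. Lists run from interferon-gamma-induced GTPases, median 1.57, down to S100 and acute phase genes, median -0.52, and 7 list entries are called.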

How the data were processed

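Total RNA of sorted lung neutrophils was made into libraries with the SMARTer kit, per the labels. The authors deposited raw read counts per gene, which the submitters' processing notes link to STAR 2.5.1a, Subread and featureCounts 1.4.6-p5; the genome build, annotation and strand setting were not given in the sources used here. Reads of genes that overlap on opposite strands can therefore not be separated. Repeated lines (276 of 40757, identical) were counted once, leaving 40481 gene IDs. All 18 libraries entered 1 fit of 6 group means in edgeR 4.0.16 (R 4.3.3; quasi-likelihood, robust, TMM factors, filterByExpr by group, 12 residual degrees of freedom), which tested 16575 genes, 13807 protein-coding. P-values were adjusted by Benjamini and Hochberg over all of them, threshold 0.05. The SE is the log2 value divided by the root of the F statistic. Depth was 33.7 to 67.9 M counts per library over the 12 used. No sample column was left out.

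Genes named were called genes with a group mean of at least 10 CPM that are not predicted models, up to 15 per direction (13 higher, 15 lower), plus up to 4 called members of each of 36 process and 14 marker lists (2 with the lowest p where none was called), up to 5 per challenge pattern, Cybb, Cd101 and sex-linked genes; full values cover the 8 lowest p per direction. All other genes printed with values belong to the 53 or were chosen after their values were seen. Most uncalled list members that the rule gives are not printed, and 1 of the 53 is not reported here. Members and lists were chosen with earlier results of these data known. Alternatives were RLE factors, library size only, DESeq2 1.42.0, no filter, the 12 libraries alone, the replicate number as a block and each library left out. Tested on simulated data for this interaction (16157 genes), the method recovered 1% of 100 genes changed 2-fold and 40% of 100 changed 4-fold, in 43 calls of which 4.65% were unchanged genes.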

Additional observations from a re-analysis of the deposited data

Results flagged for a closer look

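The zymosan response differed between CGD and WT CD101pos cells in 53 genes by the test of the difference itself (edgeR, adjusted p under 0.05 over 16575 genes), and 52 are given here with their log2 interactions, positive where the CGD response was the higher. The largest positive values were Cd209d 5.06, Gpx2 4.60, Cd163 4.05, Serpina3f 4.004, Map3k6 3.58, Serpina3m 3.38, Mt2 3.36, Mmp3 3.06 and Cd38 2.97. Next came Kcnk5 2.94, Fam169b 2.88, Adm 2.84, Popdc2 2.60, Ecm1 2.54, Rhoh 2.43, Gm27252 2.38, Eif5al3-ps 2.29 and Znhit3 2.28. The smallest positive values were Dus2 2.24, Sdc4 2.06, Zc3hc1 1.93, Gm8337 1.84, Adamtsl4 1.83, Xbp1 1.52, F630028O10Rik 1.400 and P4hb 1.397. The largest negative values were Areg -3.36, Nat8l -2.55, E2f2 -1.85, Slc25a33 -1.84, Pde5a -1.79, Rassf3 -1.75, Tlr5 -1.74, Pak1 -1.65 and Mbp -1.65. Then followed Cd101 -1.63, 5031439G07Rik -1.62, Gap43 -1.62, Lmtk2 -1.60, Ighm -1.55, Cmtm7 -1.54, Tppp3 -1.54, Amer2 -1.52 and Hnmt -1.46. The smallest in size were Csnk1e -1.30, Zfp36l2 -1.26, Mtfr1 -1.25, Rassf2 -1.24, Ndst1 -1.24, Tnfrsf21 -1.18, Cyb5r1 -1.16 and Pqlc1 -1.05. Groups of 3 libraries were too small for a formal check of single libraries far from the rest. Ecm1, Rhoh, Mt2, Cd38 and Hnmt kept their call in each of the 18 settings, and 37 of the 53 reached a mean of 10 CPM in a group.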

How the results depend on the processing

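The 53 calls (27 higher, 26 lower) became 51 with RLE size factors, 13 (9 and 4) with library size only, 261 (118 and 143) with DESeq2, which left 2253 genes without an adjusted p, 119 (59 and 60) with no low-count filter over 28513 genes, and 66 (27 and 39) with the 12 CD101pos libraries alone. In that order they shared 51, 11, 53, 49 and 47 genes with the reported calls; the cause of these differences was not tested. Leaving out 1 library gave 5 to 54 calls, 4 to 30 higher and 1 to 24 lower, in fits with fewer samples. With the replicate number as a block there were 49 calls (26 and 23), 42 of them shared. The numbers do not pair the CD101pos groups: of 18 same-numbered pairs 2 correlated above 0.1 in their deviations (-0.207 to 0.131), and 5 had their best match at their own number. Between CD101pos and CD101neg zymosan libraries 5 of 6 same-numbered pairs correlated above 0.1, so the 18 libraries are not all independent; the 12 CD101pos libraries alone avoid this. No called gene changed sign in any setting, which adds little because all settings reuse these libraries. Uncalled values that changed sign did so with a library left out, with log2 interactions of -0.28 to 0.34 for Ddx3y, -0.61 to 0.60 for Hbb-bs and -1.04 to 0.0827 for Uty. List medians moved by more than the spread between replicates in 33 of 900 cases. With 3 libraries a group and 33.7 to 67.9 M counts each, the simulated data gave few calls at 2-fold, so an uncalled gene is not shown to respond alike in both genotypes.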

Other observations

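Several gene groups of neutrophil function had no call in the interaction. The 10 NADPH oxidase genes had a median log2 interaction of -0.32, 9 of them negative, and 1 at an unadjusted p under 0.05, the exchange factor gene Vav1 (-0.64 ± 0.28); Ncf4, a cytosolic subunit, had -0.55 ± 0.28. Of 32 NRF2 and antioxidant genes none was called by edgeR and 2 by DESeq2, with a median of -0.17: Pgd, which makes NADPH in the pentose phosphate pathway, had -1.26 ± 0.28 (adjusted p = 0.0627) and the glutathione peroxidase gene Gpx1 -1.26 ± 0.33 (0.129), while the thioredoxin reductase gene Txnrd1 had 1.02 ± 0.38. Glycolysis genes (21, median -0.48) included Pfkp, a phosphofructokinase gene, at 1.24 ± 0.27 (adjusted p = 0.0577) and the hexokinase gene Hk3 at -0.97 ± 0.35. Lysosome genes (32) had a median of -0.37, with 4 at an unadjusted p under 0.05, all lower, among them the cathepsin gene Ctsd (-0.94 ± 0.29) and the proton pump gene Atp6v1b2 (-1.10 ± 0.31). Of 26 AP-1 and immediate early genes 4 were positive, and Fos, a subunit of AP-1, had -1.28 ± 0.30 (adjusted p = 0.0852). In this paragraph the genes named, with or without an adjusted p, were chosen by the lowest p of their list or after their values were seen.

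Cytokine genes of the myeloid response showed no common course. Of 27 tested, Areg was called, 10 were positive and the median was -0.15; Il1b had -0.03 ± 0.24, Tnf -0.45 ± 0.72 and Csf3, the granulocyte growth factor, 0.81 ± 0.43. Csf2, which encodes GM-CSF, had 4.40 ± 1.13 (adjusted p = 0.117) on at most 1.31 CPM in any library. Of 21 SOCS and STAT3 genes none was called by edgeR and 2 by DESeq2, with 7 at an unadjusted p under 0.05 (4 higher); Osmr, the oncostatin M receptor, had 2.39 ± 0.68 and the growth factor receptor gene Csf1r -0.96 ± 0.28. The 13 mitochondrially encoded genes of the list had a median of 0.48, 12 of them positive. They summed to 1600 to 2030 CPM in CGD zymosan, 1370 to 2020 in WT zymosan, 1350 to 2140 in CGD naive and 1740 to 2270 CPM in WT naive libraries. All tested genes with mitochondrial symbols, a wider set, took 0.330% to 0.396% of reads in CGD zymosan and 0.425% to 0.571% in WT zymosan. In naive libraries that wider set took 0.510% to 0.651% in CGD and 0.587% to 0.764% in WT. Ribosomal protein genes (45) and nuclear oxidative phosphorylation genes (28) had medians of -0.10 and -0.01, with none at an unadjusted p under 0.05. Neutrophil marker genes (12) had a median of -0.73, and 0.19 without CGD naive replicate 3. Marker sums for T and NK cells were 11.6 to 22.6 CPM in CGD zymosan and 12.4 to 17.2 CPM in WT zymosan libraries, and none of their 15 genes was called.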
